A study of Danio rerio with 25 samples.

Results

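The extracellular matrix genes described here are 42 genes taken by name: collagens, adhesive and matricellular glycoproteins, proteoglycans with their link proteins, and enzymes and inhibitors that modify the matrix. The name table gives many zebrafish genes a human-style symbol without the paralog letter, so each name took every gene ID listed under it. Of the 42 names, 40 matched, to 47 of the 31901 gene IDs in the series, and col3a1a and fbn1 matched no ID and are not analysed here. Of the 47 IDs, 25 had a name of their own and 22 shared it with another ID, and the latter are printed with their ID. IDs that share a name without its letter may belong to different paralogs, which the name table does not tell apart. Enough counts for a test were present for 45 IDs. The other 2, an ID taken for tnc (TNC, ENSDARG00000078362) and an ID taken for bgna (BGN, ENSDARG00000017884), are described by level only.

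RNA was measured by Smart-seq2, a full-length cDNA method, in 25 libraries. Each was made from a tube of 20 cells sorted as cardiomyocytes from hearts of adult zebrafish. All fish, in every group, carried sox10:CreERT2 together with the reporter vmhcl:loxP-tagBFP-loxP-mCherry-NTR. In this line sox10, a neural crest transcription factor gene, drives an inducible Cre recombinase, and a reporter under vmhcl, a myosin heavy chain gene of the ventricle, changes from blue to red once Cre has cut it. The groups were RFP-gate cells after cryoinjury (CI_RFP, 12 libraries), BFP-gate cells after cryoinjury (CI_BFP, 3), RFP-gate cells of uninjured hearts (UN_RFP, 6) and BFP-gate cells of uninjured hearts (UN_BFP, 4). The labels give no age, Cre induction, time after injury, chamber, animal or sorting day, so p-values measure the spread between these tubes, which may share an animal.

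Fibrillar collagens give tissue its tensile strength, and the basement membrane, built from type IV collagen, laminins and nidogens, surrounds each heart muscle cell and underlies endothelium and epicardium. In the heart, most fibrillar matrix is made by fibroblasts and epicardium-derived cells, while muscle cells contribute to their own basement membrane. After cryoinjury the zebrafish heart lays down a transient scar rich in collagen, fibronectin, tenascin C and periostin, which is later resolved.

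Total counts per library ran from 5644279 to 11981012, and one count was worth 0.0678 to 0.203 CPM, the unit used here, which scales a gene's counts by edgeR's effective library size. Between 1226 and 15380 genes were detected, and UN_RFP replicate 5, with 1226, lay below the limit of 3420 set for few detected genes. CI_RFP replicate 5 had 3874. The ID listed as MYH7 was taken as the ventricular myosin heavy chain by its name alone. MYH7 exceeded the atrial chain myh6 in 4 of 12 CI_RFP, 3 of 3 CI_BFP, 4 of 6 UN_RFP and 3 of 4 UN_BFP libraries. This split was read from the libraries themselves, so it is described by ranges and was not tested. The summed level of 18 cardiomyocyte marker IDs ran from 1681 to 251804 CPM. It was lower in the BFP gate (1681 to 21032 CPM) than in any RFP-gate library with more MYH7 (42391 to 251804 CPM). RFP-gate tubes led by myh6 spanned 2154 to 144343 CPM (median 20587 CPM), which overlapped both of these ranges.

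Matrix transcripts were abundant in every BFP-gate library and low in the RFP-gate libraries in which the ventricular myosin was the higher. The summed level of the 47 IDs was 16268, 7249 and 3854 CPM in CI_BFP and 11867, 7126, 2553 and 11288 CPM in UN_BFP. The CI_RFP libraries ran from 11.14 CPM through a median of 9768 CPM to 67445 CPM. In UN_RFP the lowest was 37.49 CPM, the median 428.5 CPM and the highest 5442 CPM. Leaving out 1 library moved the UN_RFP median to 124.3 CPM (without replicate 1, 3 or 6) or 732.7 CPM (without replicate 2, 4 or 5). It moved the CI_BFP median to 11759 CPM without replicate 3. The ranges of the gates overlapped in both conditions, and the lowest RFP-gate levels were far below the lowest BFP-gate level.

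**Figure D1:**
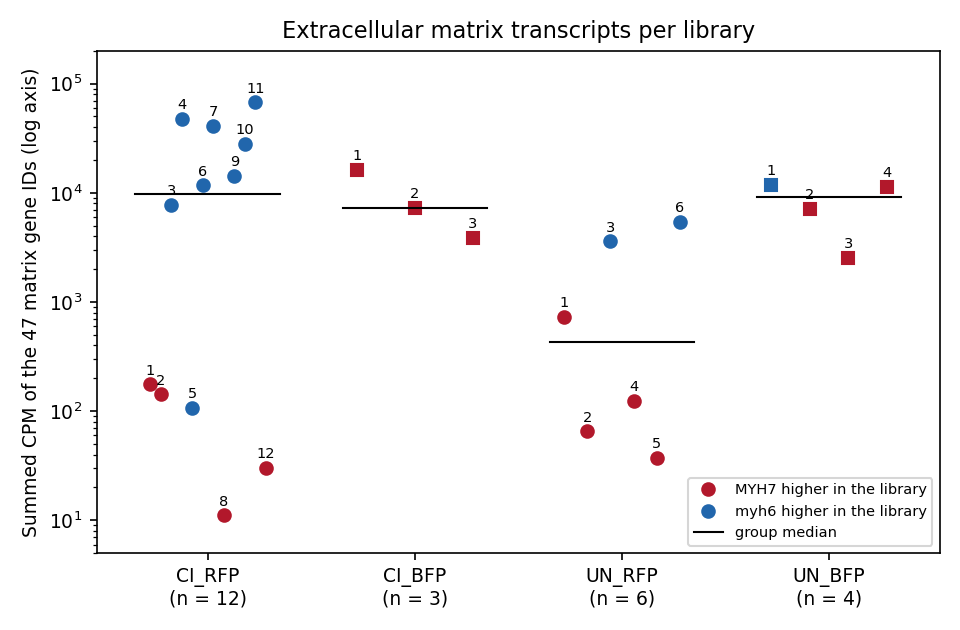
Summed CPM of the 47 matrix gene IDs (log axis) in each of the 25 libraries by group, numbered by replicate; colour gives the higher myosin and the line the group median. In the RFP gate the libraries with more MYH7 lie at 11.14 to 732.7 CPM, and those with more myh6 lie at 3581 CPM or above except CI_RFP replicate 5 at 107.8 CPM.

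Within the RFP gate the level followed the myosin. The 8 libraries with more MYH7 (CI_RFP replicates 1, 2, 8 and 12 and UN_RFP replicates 1, 2, 4 and 5) had sums from 11.14 to 732.7 CPM. The 10 libraries with more myh6 ran from 107.8 to 67445 CPM. The low end was CI_RFP replicate 5, and the next was UN_RFP replicate 3 with 3581 CPM. In the BFP gate the sum was 2553 to 16268 CPM and MYH7 was the higher in 6 of 7 libraries. Its level there was 107.1 to 3278 CPM, beside 1580 to 53551 CPM in the RFP-gate libraries with more MYH7.

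The same split was seen in how many matrix genes could be detected. At 1 CPM or more, the RFP-gate libraries with more MYH7 held 2 to 19 of the 47 IDs, with a median of 5.5. Those with more myh6 held 5 to 44, with a median of 42, and the BFP-gate libraries held 27 to 42. In the 8 libraries with more MYH7, 17 of the 47 IDs reached 1 CPM in none, and no ID reached it in all. In the BFP gate 21 IDs reached it in all 7 libraries. At 5 CPM the ranges were 1 to 12, 4 to 41 and 26 to 38 IDs. Genes of any kind detected in the same sets numbered 1226 to 11491, 3874 to 15380 and 6920 to 14408. They were thus also lower at both ends where MYH7 led, and the 3874 was CI_RFP replicate 5. CI_RFP replicate 12, with more MYH7, had 10261 genes and 7 of the 47 IDs. The part of the number of detected genes in these counts was not tested. As a share of all raw counts, the 47 IDs took at most 0.05237% in an RFP-gate library with more MYH7 and up to 9.375% in CI_RFP replicate 11.

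**Figure D2:**
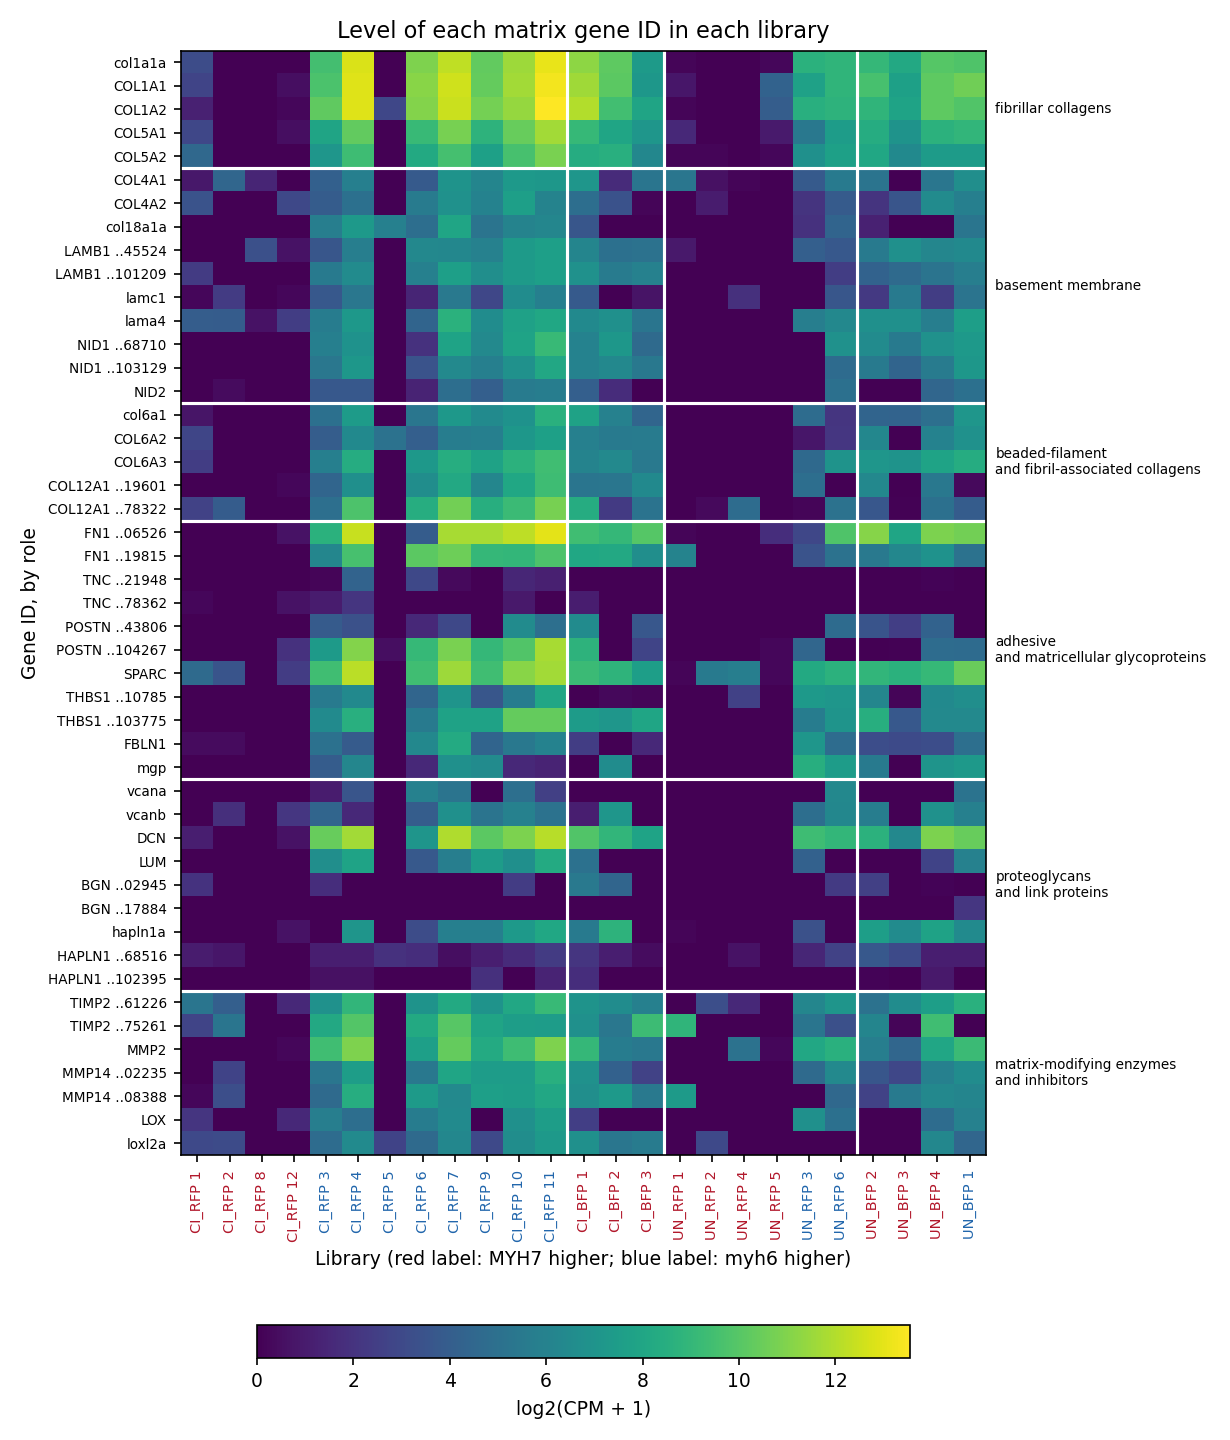
Level of each of the 47 matrix gene IDs, as log2(CPM + 1), in the 25 libraries, with IDs grouped by role and shared names followed by the last digits of the ID. Library labels are red where MYH7 was the higher myosin and blue where myh6 was; CI_RFP replicates 1, 2, 8 and 12 and UN_RFP replicates 1, 2, 4 and 5 are dark in nearly every row, and so is CI_RFP replicate 5.

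Markers of fibroblasts and epicardium moved with the matrix genes. Over 13 such IDs that are not members, the sum was 0 to 66.67 CPM in the RFP-gate libraries with more MYH7, 0 to 4990 CPM in those with more myh6 and 244.5 to 1548 CPM in the BFP gate. CLU alone gave 4524 of the 4990 CPM in CI_RFP replicate 7 and all 66.67 CPM in CI_RFP replicate 12. In UN_BFP replicate 1 it gave 357.5 of 1548 CPM, and in UN_RFP replicate 3 it gave 12.24 of 93.3 CPM. The epicardial transcription factors TCF21, TBX18, WT1 and wt1b, and the fibroblast receptor PDGFRA, were at 0 in all 8 RFP-gate libraries with more MYH7 and in CI_RFP replicate 5. TCF21 passed 1 CPM in 7 of 10 libraries of that gate where myh6 led, at up to 113.6 CPM, and in 7 of 7 BFP-gate libraries, at 2.225 to 181.5 CPM. TBX18 passed 1 CPM in 8 RFP-gate libraries, all with more myh6, and in 6 BFP-gate libraries. Of the other 8 marker IDs, 5 had counts in some of these 8 libraries. fap, a protease of activated fibroblasts, was at 23.42 CPM in UN_RFP replicate 1, its highest level of all 25 libraries. CXCL12 was at 41.13 CPM in UN_RFP replicate 5, CLU at 66.67 CPM in CI_RFP replicate 12 and ALDH1A2 at 25.7 CPM in CI_RFP replicate 1. UN_RFP replicate 3 had 408.5 CPM of col1a1a while TCF21, TBX18, WT1 and wt1b were all at 0, and its PDGFRA was 15.15 CPM. Their part in the matrix levels was not tested, and in tubes of sorted cells a lower number of cells of a type and less RNA per cell cannot be told apart.

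Other cell types were measured in the same libraries. The summed level of 18 leukocyte marker IDs was 0 to 7366 CPM in RFP-gate libraries with more MYH7, 8.879 to 7665 CPM in those with more myh6 and 185 to 16083 CPM in the BFP gate. That of 18 endothelial and endocardial IDs was 16.21 to 1174 CPM, 0.1456 to 1704 CPM and 421.7 to 1712 CPM. For 9 smooth muscle and pericyte IDs it was 5.874 to 2128 CPM, 175.3 to 6384 CPM and 306.6 to 1136 CPM. These ranges overlapped between the RFP-gate libraries of either myosin, as did those of the fibroblast and epicardium markers. The medians were lower where MYH7 led than where myh6 led. They were 13.36 and 502.6 CPM for leukocyte, 98.99 and 442.7 CPM for endothelial and 173.1 and 850.3 CPM for smooth muscle IDs. The erythrocyte median went the other way, at 1.487 and 0.0944 CPM. The leukocyte sum exceeded the cardiomyocyte marker sum in CI_BFP replicates 2 and 3 and UN_BFP replicates 2 and 4. The values were 15023 beside 10248, 10259 beside 8024, 2075 beside 1681 and 16083 beside 15716 CPM. In CI_BFP replicate 1 and UN_BFP replicates 1 and 3 the cardiomyocyte sum was the higher. Erythrocyte, thrombocyte and neural crest sums reached 596.3, 43.16 and 113 CPM at most. Their part in the matrix levels was not tested.

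**Figure D3:**
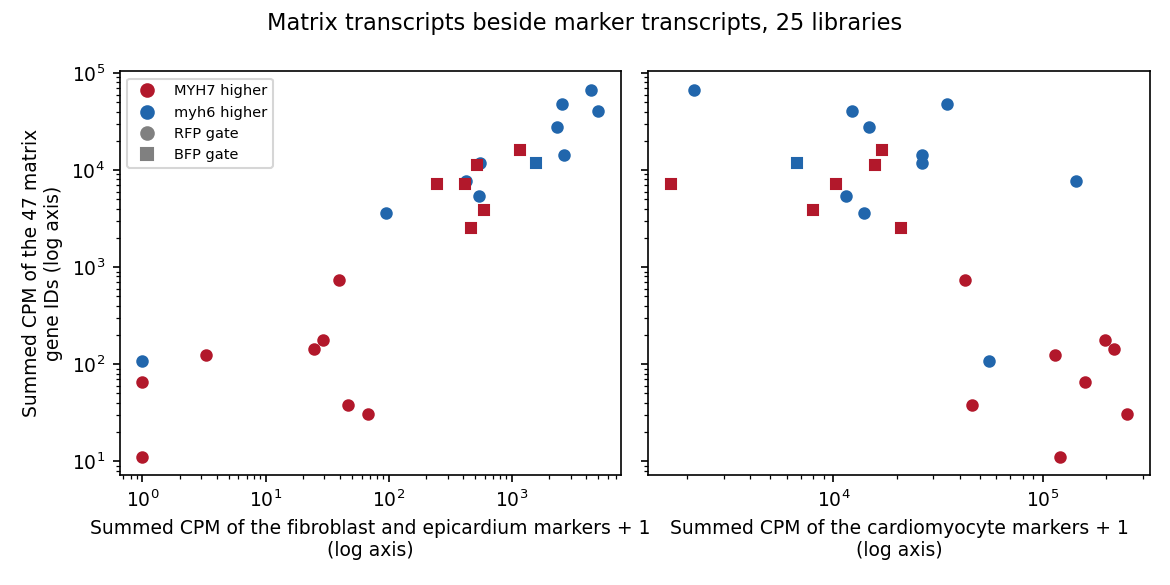
Summed CPM of the 47 matrix gene IDs against the summed CPM + 1 of fibroblast and epicardium markers that are not members (left) and of cardiomyocyte markers (right), all on log axes, 1 point per library; colour gives the higher myosin and shape the gate. Matrix sums of 2553 CPM or more all stand beside fibroblast and epicardium sums of at least 93.3 CPM, and sums of 732.7 CPM or less stand beside sums of at most 66.67 CPM.

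Between groups, none of the 45 tested IDs passed an adjusted p of 0.05 in any of 5 comparisons (edgeR quasi-likelihood test, Benjamini-Hochberg adjustment over 14853 genes), and few genes of any kind did. The background was 0.0% of genes in CI_RFP vs CI_BFP, 0.0% in UN_RFP vs UN_BFP, 0.0269% (4 genes) in CI_RFP vs UN_RFP, 0.0% in CI_BFP vs UN_BFP and 0.0% for the interaction of gate and injury. The comparisons share groups and so are not independent of each other. The common biological coefficient of variation was 2.127, so the spread between tubes of a group was larger than the mean level.

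In the RFP gate, 43 of the 45 IDs had fitted levels above those of uninjured hearts after cryoinjury and 2 below. Of all genes tested, 69.43% were above. The median log2 fold change of the 45 IDs was 3.22, beside 0.75 over all genes tested. The 12 tested fibroblast and epicardium marker IDs had a median of 2.56 in the same comparison, and their part was not tested. The myosins differed as well, since myh6 led in 8 of 12 CI_RFP and 2 of 6 UN_RFP libraries. Where MYH7 led, the summed matrix level was 11.14 to 176 CPM in 4 CI_RFP libraries (median 86.63 CPM) and 37.49 to 732.7 CPM in 4 UN_RFP libraries (median 94.76 CPM), so these ranges overlapped. Where myh6 led, it was 107.8 to 67445 CPM in 8 CI_RFP libraries and 3581 and 5442 CPM in the 2 UN_RFP libraries. At an unadjusted p under 0.05, 10 were higher, beside 15.8% of all genes, and none was lower. These 10 are 22.22% of the 45. In the BFP gate the median was -0.20, with 20 IDs above 0 and 25 below, beside a median of 0 and 49.84% above 0 over all genes. At an unadjusted p under 0.05, 2 (4.444%) were lower, vcana and THBS1 (ENSDARG00000010785), beside 3.57% of all genes.

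Between the gates of uninjured hearts the median was -2.24, with 41 of 45 IDs lower in RFP, beside -0.43 over all genes and -2.34 over the fibroblast and epicardium markers. Of all genes, 38.75% were above 0. At an unadjusted p under 0.05, 7 IDs (15.56%) were lower in RFP, beside 11.2% of all genes. After cryoinjury the median was 0.88, beside 0.22, and 32 IDs were above 0, beside 55.28% of all genes. At an unadjusted p under 0.05, 3 were higher (6.667%, background 7.65%) and 1 was lower (2.222%, background 1.68%). For the interaction the median was 3.37, beside 0.81, and 42 IDs were above 0, beside 64.38% of all genes. There 5 were higher at an unadjusted p under 0.05 (11.11%, background 8.53%). Taking IDs with a group at 0 at their bound moved the 4 group medians to 0.88, -2.21, 3.19 and -0.16.

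**Figure D4:**
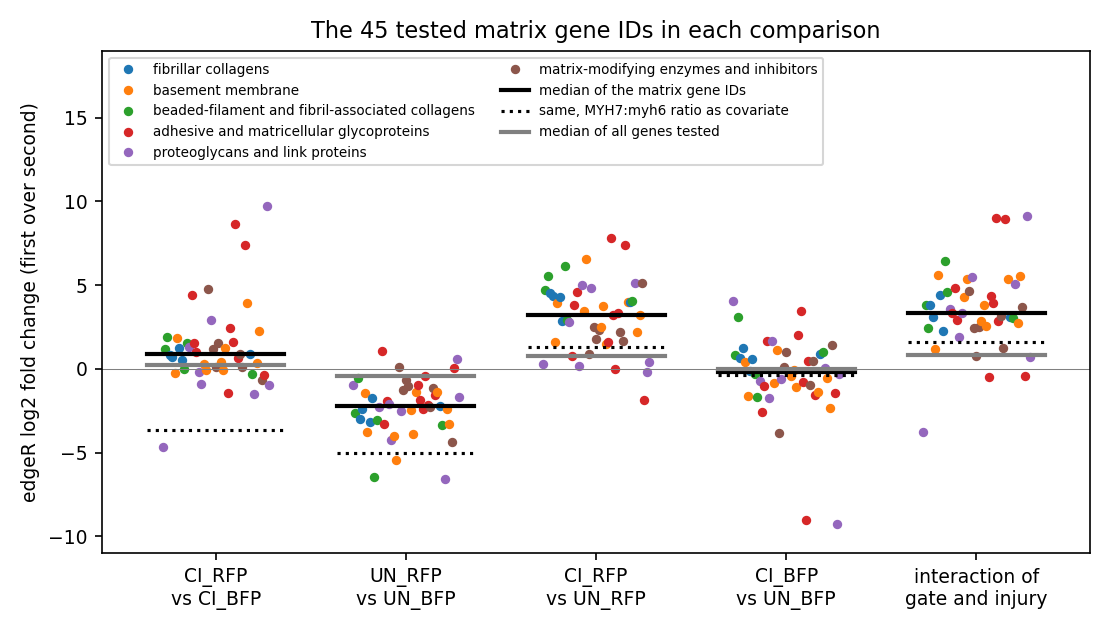
edgeR log2 fold change of each of the 45 tested matrix gene IDs, coloured by role, in the 5 comparisons; black lines give their median, grey lines the median of all genes and dotted lines their median with the MYH7 to myh6 ratio as a covariate. The points lie mostly above 0 in CI_RFP vs UN_RFP (median 3.22) and below 0 in UN_RFP vs UN_BFP (median -2.24), and the covariate moves the CI_RFP vs CI_BFP median from 0.88 to -3.62.

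The gate comparison changed when the myosins entered the fit. With the log2 ratio of MYH7 to myh6 of each library as a covariate in edgeR, the matrix median in CI_RFP vs CI_BFP was -3.62. There 7 IDs (15.56%) passed as lower in RFP, beside 0.768% of genes. They were both NID1 IDs, col6a1, hapln1a, mgp, THBS1 (ENSDARG00000103775) and POSTN (ENSDARG00000043806). In UN_RFP vs UN_BFP, 10 (22.22%) passed as lower, beside 0.956% of genes, and the median was -5.02. In CI_RFP vs UN_RFP the median was 1.32 and none passed. The ratio was read from the same libraries, and the same slope was fitted for both gates. In the BFP gate matrix sums were 2553 to 16268 CPM although MYH7 mostly led, unlike in the RFP gate. Whether that slope holds in both gates was not tested, so the calls with the covariate depend on it. limma voom gave -2.104 in CI_RFP vs CI_BFP, so the sign of that median is not settled by these libraries.

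In CI_RFP vs UN_RFP, some IDs passed under other settings. None passed in edgeR with DESeq2 size factors, with only the compared groups fitted, without the library of few detected genes or with the myosin covariate. DESeq2 called 10 IDs higher in CI_RFP than in UN_RFP, 23.26% of the members given an adjusted p beside 6.42% of all such genes. They were COL6A2, POSTN (ENSDARG00000104267), LAMB1 (ENSDARG00000101209), COL12A1 (ENSDARG00000078322), loxl2a, hapln1a, COL5A1, COL1A2, COL1A1 and COL4A2. limma voom called 4 (8.889%, beside 3.53% of all genes): loxl2a, LAMB1 (ENSDARG00000101209), COL6A2 and COL12A1 (ENSDARG00000019601). Without a filter on low counts edgeR called 3 (6.383%, beside 0.8% of all genes). Leaving out UN_RFP replicate 6 gave 3, beside 0.991% of all genes: LAMB1 (ENSDARG00000101209), NID1 (ENSDARG00000103129) and COL6A2. Without UN_RFP replicate 2 it was loxl2a, beside 0.0678% of all genes. Without CI_BFP replicate 3 it was LAMB1 (ENSDARG00000101209), beside 0.297% of all genes. In UN_RFP, replicate 6 alone held counts of these LAMB1 and NID1 IDs, and replicate 2 alone held counts of loxl2a. Leaving that library out set the group to 0 for the ID. The call made without it thus rests on removing the only value above 0. COL6A2 kept 0.7464 CPM, in UN_RFP replicate 3. In UN_RFP vs UN_BFP, the same LAMB1, NID1 and COL6A2 IDs passed as lower without UN_RFP replicate 6, beside 1.09% of all genes, with the same limit. There limma voom called 7 lower (15.56%, beside 1.27%) and DESeq2 called COL6A2 lower (2.326%, beside 3.83%). In CI_RFP vs CI_BFP, DESeq2 called THBS1 (ENSDARG00000010785) higher (2.326%, beside 3.33%).

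Among the fibrillar collagens, the 3 chains of type I collagen, the main fibre of scar and tendon, were col1a1a, col1a1b (listed as COL1A1) and col1a2 (COL1A2). COL1A2 was at 4072, 698.8 and 236.6 CPM in CI_BFP and at 933, 461.7, 233.5 and 1169 CPM in UN_BFP. CI_RFP values ran from 0 through a median of 1440 CPM to 12003 CPM, and in UN_RFP from 0 through 7.512 CPM to 426.4 CPM. The high libraries were the same as for the sum, and the groups overlapped. COL1A2 averaged 2755 ± 3813 CPM (SD, n = 12) in CI_RFP and 135.9 ± 205.4 CPM (SD, n = 6) in UN_RFP, a log2 fold change of 4.34 with a standard error (SE) of 2.35 and an edgeR adjusted p of 0.402. The SE restates the F statistic of the test.

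The type I chains kept close to each other across libraries. In the 16 libraries with at least 100 CPM of col1a1a, where col1a1a ran from 165.6 to 8716 CPM, the ratio of COL1A2 to col1a1a stayed between 0.6054 and 1.673, and that of COL1A1 to col1a1a between 0.5171 and 1.693. In type V collagen, which nucleates collagen fibrils, the ratio to col1a1a ran from 0.104 to 0.8246 for COL5A1. COL5A1 was at 545.5, 247.3 and 136.5 CPM in CI_BFP and at 477, 335.4, 123.3 and 419.8 CPM in UN_BFP. In CI_RFP it ran from 0 through 334.2 to 3205 CPM and in UN_RFP from 0 through 1.476 to 181.9 CPM (log2 fold change 4.27, SE 2.2, edgeR adjusted p 0.357). The groups overlapped, and all 5 fibrillar IDs, col5a2a (COL5A2) included, had fold changes above 0 in that comparison.

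The sum of the 10 basement membrane IDs was 0 to 39.9 CPM in the RFP-gate libraries with more MYH7, 59.61 to 1886 CPM where myh6 led in that gate and 238.4 to 899.8 CPM in the BFP gate. In CI_RFP replicate 8 all 11.14 CPM of matrix counts came from this role, 8.913 CPM of them from LAMB1 (ENSDARG00000045524). lama4, the laminin chain of muscle and vessel basement membranes, was at 85.22, 112.1 and 37.99 CPM in CI_BFP and at 191.5, 108.6, 108.7 and 54.64 CPM in UN_BFP. The CI_RFP libraries ran from 0 through 35.67 to 400.2 CPM, and in UN_RFP from 0 through 0 to 79.09 CPM. CI_RFP replicates 1 and 2 held 14.98 and 14.42 CPM of it although their MYH7 was high, and the groups overlapped (log2 fold change 2.19, SE 1.48, edgeR adjusted p 0.590).

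lamb1a encodes a laminin beta chain. The name table lists 2 IDs as LAMB1 and does not say which of them is lamb1a. LAMB1 (ENSDARG00000101209) was at 113.2, 49.58 and 61.64 CPM in CI_BFP and at 55.53, 18.34, 24.78 and 35.92 CPM in UN_BFP. CI_RFP values ran from 0 through 52.81 to 199.7 CPM, and in UN_RFP 5 libraries were at 0 and replicate 6 was at 4.539 CPM. All UN_RFP values lay below all UN_BFP values, and they overlapped with CI_RFP. It averaged 72.29 ± 78.98 CPM (SD, n = 12) in CI_RFP and 0.7565 ± 1.853 CPM (SD, n = 6) in UN_RFP, a log2 fold change of 6.54 (SE 1.87, edgeR adjusted p 0.0912).

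Nidogens bridge laminin and type IV collagen. Of the other basement membrane genes, both IDs listed as NID1, taken for nid1a, were at 0 in all 8 RFP-gate libraries with more MYH7. NID1 (ENSDARG00000068710) was at 25 to 161.4 CPM in the BFP gate and reached 554.5 CPM in CI_RFP replicate 11. col4a1 and col4a2 (COL4A1, COL4A2), the chains of the most widespread type IV collagen, reached 38.98 and 10.04 CPM in RFP-gate libraries with more MYH7. COL4A2 had a log2 fold change of 3.96 between CI_RFP and UN_RFP (SE 1.62, edgeR adjusted p 0.128). col18a1a, whose protein yields endostatin, was the member with the highest level in CI_RFP replicate 5, at 59.61 CPM of its 107.8 CPM. lamc1, a laminin gamma chain, and nid2a (NID2) peaked at 96.47 and 53.54 CPM, both in CI_RFP.

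Type VI collagen forms beaded filaments next to basement membranes, and type XII collagen sits on the surface of collagen fibrils. col6a2 (COL6A2) was at 59.77, 47.14 and 49.02 CPM in CI_BFP and at 115.1, 76.76, 0 and 62.31 CPM in UN_BFP. In CI_RFP it ran from 0 through 24.48 to 205 CPM, and in UN_RFP 4 of 6 libraries were at 0 and the highest was at 3.404 CPM. All UN_RFP values were below all CI_BFP values, and they overlapped with CI_RFP and, through UN_BFP replicate 3, with UN_BFP. COL6A2 averaged 51.11 ± 64.65 CPM (SD, n = 12) in CI_RFP and 0.6918 ± 1.362 CPM (SD, n = 6) in UN_RFP, a log2 fold change of 6.17 (SE 1.75, edgeR adjusted p 0.0912). It also had the smallest edgeR p of the members in UN_RFP vs UN_BFP, with a log2 fold change of -6.48 (SE 1.86, adjusted p 0.115).

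The ratio of COL6A2 to col6a1 ran from 0.2643 to 3.897 over 13 libraries, and that of col6a3 (COL6A3) to col6a1 from 0.2871 to 7.611 over 15. These chains form a heterotrimer. Their ratios ranged more widely than those of the type I chains, but the limits differed. At least 5 CPM of both IDs was required here, and at least 100 CPM of col1a1a there. The part of these limits in the spread was not tested. For col12a1a and col12a1b the table lists 2 IDs as COL12A1, and does not say which is which. COL12A1 (ENSDARG00000078322) was at 334.5, 3.92 and 34.44 CPM in CI_BFP and at 14.31, 11.84, 0.076 and 31.5 CPM in UN_BFP. The CI_RFP libraries ran from 0 through 189.7 to 1720 CPM, and in UN_RFP from 0 through 0.2062 to 33.59 CPM. Values above 33.59 CPM were seen after cryoinjury only, in 8 libraries, although the groups overlapped at low levels. The log2 fold change between CI_RFP and UN_RFP was 5.53 (SE 2.37, edgeR adjusted p 0.203).

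Fibronectin (fn1a and fn1b, 2 IDs listed as FN1) binds cells to collagen. FN1 (ENSDARG00000006526) was at 674.2, 525.5 and 1018 CPM in CI_BFP and at 1644, 2211, 253.5 and 1886 CPM in UN_BFP. CI_RFP values ran from 0 through 210.9 to 8034 CPM. In UN_RFP it was at most 6.419 CPM in 5 libraries and 895 CPM in replicate 6. The groups overlapped (CI_RFP vs UN_RFP log2 fold change 3.82, SE 2.53, edgeR adjusted p 0.580). UN_RFP replicates 3 and 6, both with more myh6 and with 408.5 and 458.4 CPM of col1a1a, thus differed in this gene by 6.419 against 895 CPM.

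Tenascin C (tnc), a glycoprotein of healing wounds that loosens cell adhesion, was low wherever it was found. TNC (ENSDARG00000021948) was above 1 CPM in 4 libraries, CI_RFP replicates 4, 6, 10 and 11, at 18.7, 6.564, 1.712 and 1.275 CPM. It was at 0 in all CI_BFP and UN_RFP libraries, and in UN_BFP replicate 4 it was at 0.1162 CPM. The mean of 2.388 CPM in CI_RFP was at least 40.55-fold higher than UN_RFP allowed at a floor of 3 counts over the group, and the edgeR adjusted p was 0.0912. Without CI_RFP replicate 4 the mean was 0.9049 CPM and the bound 15.37-fold. This ID passed the filter on low counts through CI_RFP alone and was named for its smallest p. Its p and bounds therefore describe these libraries and lend no separate support. TNC (ENSDARG00000078362) was above 1 CPM in CI_RFP replicates 3 and 4 (1.043 and 3.275 CPM) and CI_BFP replicate 1 (1.144 CPM). It was at 0 in all 10 uninjured libraries.

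sparc (SPARC), whose protein binds collagen and aids its assembly, was the glycoprotein found most often in RFP-gate libraries with more MYH7: it was above 1 CPM in 5 of 8, at up to 54.09 CPM. It reached 4465 CPM in CI_RFP replicate 4 and was 194.2 to 1420 CPM in the BFP gate. For the thrombospondin gene thbs1b the name table lists 2 IDs as THBS1 and does not say which of them it is. THBS1 (ENSDARG00000103775) was at 0 in all 8 RFP-gate libraries with more MYH7 and at 12.24 to 361.6 CPM in the BFP gate. THBS1 (ENSDARG00000010785) was near 0 in CI_BFP (0, 0.2119 and 0.1226 CPM) beside 101.8, 73.55, 0.152 and 85.79 CPM in UN_BFP. Its log2 fold change in CI_BFP vs UN_BFP was -9.04 (SE 4.02, edgeR adjusted p 0.514).

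Periostin, a matricellular protein of activated fibroblasts, had 2 IDs listed as POSTN. The name table does not say which of them is postnb. POSTN (ENSDARG00000104267) was chosen here after its values were seen. It was at 163.2, 2097, 536.7, 1790, 513.4, 948.8 and 3447 CPM in CI_RFP replicates 3, 4, 6, 7, 9, 10 and 11 and at most 2.778 CPM in the other 5. In CI_BFP it was at 425.1, 0 and 5.76 CPM. In the 10 uninjured libraries it was at most 26.62 CPM, with 5 at 0. The 8 values above 100 CPM were thus all from cryoinjured hearts, and the groups overlapped at low levels. Between CI_RFP and UN_RFP the log2 fold change was 7.8 (SE 3.09, edgeR adjusted p 0.148).

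Set against type I collagen in the same library, an ID of periostin and an ID of type XII collagen had higher medians in the cryoinjured hearts, and matrix Gla protein had a lower one. Over the 16 libraries with at least 100 CPM of col1a1a, 10 cryoinjured and 6 uninjured, POSTN (ENSDARG00000104267) stood at a median of 28.59% of col1a1a after cryoinjury (0 to 40.71%) and 1.343% without it (0 to 5.116%). COL12A1 (ENSDARG00000078322) stood at 18.78% (0.3396 to 32.17%) and 1.924% (0.0263 to 7.327%). The paired IDs did not follow them alike. POSTN (ENSDARG00000043806) had the opposite order, at 0.2404% (0 to 7.18%) after cryoinjury and 1.715% (0 to 5.52%) without it. COL12A1 (ENSDARG00000019601) stood at 5.405% (1.508 to 52.33%) and 2.076% (0 to 15.07%). For mgp, an inhibitor of calcification, the medians were 0.5776% (0 to 8.16%) and 15.16% (0 to 86.86%). All 5 ranges overlapped between the conditions. Most of the 10 cryoinjured libraries were CI_RFP and most of the 6 uninjured ones were UN_BFP, so injury and gate were mixed in these medians. In CI_BFP, POSTN (ENSDARG00000104267) was at 425.1, 0 and 5.76 CPM beside col1a1a at 2458, 1154 and 165.6 CPM. These genes were chosen after their values were seen, the 16 libraries were kept by their col1a1a level, and the ratios carry no test.

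mgp itself was at 354.9 and 178 CPM in UN_RFP replicates 3 and 6 and at 159.6, 47.55, 0 and 129.5 CPM in UN_BFP. After cryoinjury its highest level was 112 CPM, in CI_RFP replicate 7, and CI_RFP replicate 11, with 8716 CPM of col1a1a, had 1.53 CPM. It was at 0 in all 8 RFP-gate libraries with more MYH7. fbln1 (FBLN1), an elastic fibre and basement membrane glycoprotein, stood at a median of 1.268% of col1a1a after cryoinjury and 2.876% without, and its highest ratio, 34.06%, was in UN_RFP replicate 3.

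**Figure D5:**
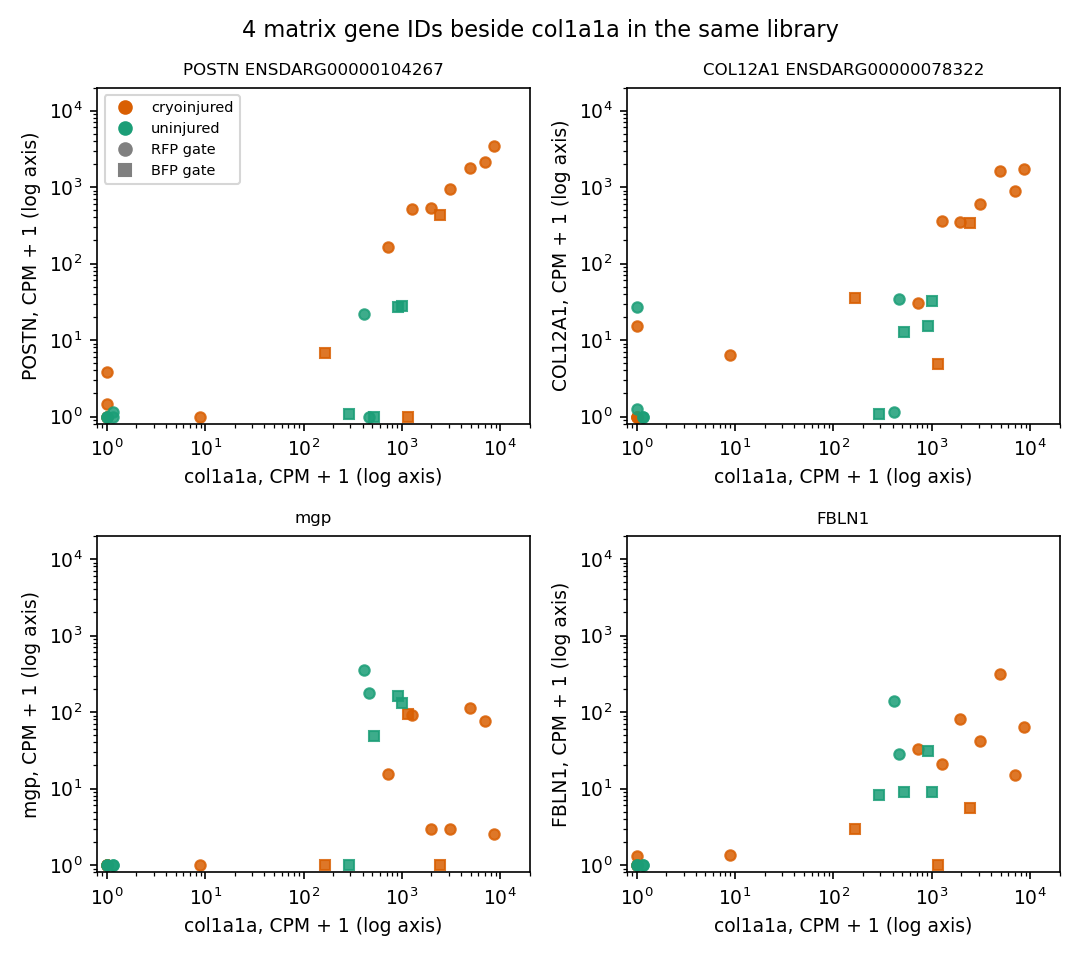
CPM + 1 of POSTN (ENSDARG00000104267), COL12A1 (ENSDARG00000078322), mgp and FBLN1 against CPM + 1 of col1a1a in the same library, on log axes, 1 point per library, coloured by injury with shape for the gate. At col1a1a levels between 165.6 and 8716 CPM, POSTN exceeded 100 CPM in cryoinjured libraries only (163.2 to 3447 CPM) and was at most 26.62 CPM in uninjured ones.

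Among the proteoglycans, dcn (DCN), the small proteoglycan decorin that coats collagen fibrils, was at 930.9, 491 and 228.8 CPM in CI_BFP and at 1336, 416.2, 80.33 and 1865 CPM in UN_BFP. In CI_RFP it ran from 0 through 635.2 to 4348 CPM. In UN_RFP it was at 0 in 4 libraries and at 636.8 and 505.4 CPM in replicates 3 and 6. The groups overlapped (CI_RFP vs UN_RFP log2 fold change 2.81, SE 2.32, edgeR adjusted p 0.733). In CI_RFP replicate 6 DCN was at 132.8 CPM, 6.788% of col1a1a, the lowest such ratio of the 16 libraries, and the highest was 186.3% in UN_BFP replicate 4.

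lum (LUM), the related proteoglycan lumican, was above 1 CPM in 7 CI_RFP libraries (up to 309 CPM) and in 4 libraries of the other groups. vcana, a versican gene whose large proteoglycan fills the cardiac jelly of the developing heart, was at 0 in all 3 CI_BFP libraries. It averaged 11.93 CPM in CI_RFP, at least 111.7-fold above the CI_BFP floor (7.469 CPM and at least 69.93-fold without CI_RFP replicate 6), with an edgeR adjusted p of 0.524 and 6 of 12 CI_RFP libraries at 0. vcanb reached 137.5 CPM, in CI_BFP replicate 2. BGN (ENSDARG00000002945), for biglycan (bgna), reached 42.99 CPM in CI_BFP replicate 1 and at most 4.852 CPM outside CI_BFP, and BGN (ENSDARG00000017884) had counts in UN_BFP replicate 1 alone.

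Link proteins fasten proteoglycans such as versican to hyaluronan. hapln1a was at 45.76, 427.8 and 0 CPM in CI_BFP and at 87.54, 193.8, 92.8 and 224.4 CPM in UN_BFP. In RFP-gate libraries it reached 267.7 CPM after cryoinjury and 9.106 CPM without, so that all 6 UN_RFP values lay below all 4 UN_BFP values. Its log2 fold change in UN_RFP vs UN_BFP was -6.57 (SE 2.77, edgeR adjusted p 0.192). The IDs listed as HAPLN1, taken for hapln1b, were low: HAPLN1 (ENSDARG00000068516) was at most 12.32 CPM. HAPLN1 (ENSDARG00000102395) was at 0.5216, 0.5095, 2.722 and 1.53 CPM in CI_RFP replicates 3, 4, 9 and 11 and at 0 in the other 8 CI_RFP libraries. It was at 2.478, 0 and 0 CPM in CI_BFP, at 0 in all of UN_RFP and at 0, 0.09704, 0 and 0.93 CPM in UN_BFP. The CI_RFP mean was at least 7.476-fold above the UN_RFP floor (edgeR adjusted p 0.112), and at least 3.953-fold without CI_RFP replicate 9. This ID was above 1 CPM only in CI_RFP replicates 9 and 11 and CI_BFP replicate 1. It was named for the smallest p of its role, so its p and bounds describe these libraries and lend no separate support.

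The enzymes and inhibitors included the gelatinase mmp2, its activators of the membrane-bound mmp14 family, their inhibitors of the timp2 family, and the collagen cross-linking oxidases lox and loxl2a. mmp2 (MMP2) was at 520.4, 51.38 and 41.42 CPM in CI_BFP and at 605.5, 55.41, 21.13 and 255.9 CPM in UN_BFP. The CI_RFP libraries ran from 0 through 254.3 to 1985 CPM and in UN_RFP from 0 through 16.85 to 390.1 CPM. The groups overlapped, with a log2 fold change of 2.32 (SE 2.13, edgeR adjusted p 0.793) that changed to -2.91 with the myosin ratio as a covariate.

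loxl2a was at 111.6, 39.2 and 48.04 CPM in CI_BFP and at 21.09, 0, 0 and 76.72 CPM in UN_BFP. CI_RFP values ran from 0 through 16.29 to 161.5 CPM and was above 1 CPM in 10 of 12 libraries, CI_RFP replicates 1, 2 and 5 with their low matrix sums included (6.808, 7.446 and 5.605 CPM). In UN_RFP it was at 6.972 CPM in replicate 2 and at 0 in the other 5. The groups overlapped. It averaged 41.97 ± 52.17 CPM (SD, n = 12) in CI_RFP and 1.162 ± 2.846 CPM (SD, n = 6) in UN_RFP, a log2 fold change of 5.16 (SE 1.79, edgeR adjusted p 0.0912). lox (LOX) reached 187.5 CPM in CI_RFP replicate 11 and was at 0 in CI_BFP replicates 2 and 3 and UN_BFP replicates 2 and 3.

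Some high single values stood in libraries that otherwise lacked matrix. UN_RFP replicate 1, with more MYH7, owed 458.3 of its 732.7 CPM to TIMP2 (ENSDARG00000075261) and 164.8 CPM to MMP14 (ENSDARG00000008388), while its col1a1a was 0.1541 CPM. Its leukocyte marker sum was 7366 CPM, the highest among RFP-gate libraries with more MYH7, and its part in these 2 levels was not tested.

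Where 2 IDs share a name, their proportions could differ widely between libraries. Each ratio used the libraries with at least 5 CPM of both IDs. The ratio of FN1 (ENSDARG00000006526) to FN1 (ENSDARG00000019815) ran from 0.01258 in CI_RFP replicate 6 to 49.98 in UN_BFP replicate 2 over 16 libraries. The ratio of TIMP2 (ENSDARG00000061226) to TIMP2 (ENSDARG00000075261) ran from 0.09468 in CI_BFP replicate 3 to 15.29 in UN_RFP replicate 6. For MMP14 it was 0.2785 to 8.988, for LAMB1 0.2465 to 4.512, and for NID1 0.5948 to 4.361. The LAMB1 ratio, ENSDARG00000045524 over ENSDARG00000101209, was 0.2465 to 1.333 in 10 cryoinjured libraries and 1.516 to 4.512 in 4 uninjured ones, so these ranges did not overlap. The 4 uninjured libraries were all UN_BFP and most of the cryoinjured ones were CI_RFP. No UN_RFP library entered, so the RFP gate had no uninjured side in this ratio. The LAMB1 ratio was chosen after its values were seen and carries no test. No source used here states how reads that match both IDs of a pair were counted, and its part in these ratios was not tested.

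Other matrix genes were read from lists of names. Of 94 IDs of structural matrix genes outside the members, 60 were tested and none passed in any comparison. Their median log2 fold change in CI_RFP vs UN_RFP was 2.103, with 17 (28.33%) higher at an unadjusted p under 0.05, beside 15.8% of all genes. In UN_RFP vs UN_BFP it was -1.42, with 9 (15.0%) lower, beside 11.2% of all genes. For 48 tested enzymes and assembly factors the same medians were 1.57 and -1.67. The smallest p among these in CI_RFP vs UN_RFP was that of ADAMTS1 (ENSDARG00000103519), a secreted protease of versican and other proteoglycans, at 47.77 ± 81.5 CPM (SD, n = 12) in CI_RFP and 0 in UN_RFP (edgeR adjusted p 0.0676). Among structural genes it was HAPLN3, at 31.01 ± 64.77 CPM (SD, n = 12) and 0.02488 ± 0.06095 CPM (SD, n = 6), with an edgeR adjusted p of 0.0912.

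In CI_RFP vs UN_RFP, matrix receptors and genes of TGF-beta signalling stood nearer to the median of all genes than the members did. For 22 tested receptor IDs the median in CI_RFP vs UN_RFP was 0.82. For 30 tested genes of TGF-beta signalling, a main inducer of matrix synthesis, it was 0.95, beside 0.75 over all genes. That list held targets and inhibitors of the pathway as well as ligands and receptors. No ID of either list passed in any comparison. The smallest p in CI_RFP vs UN_RFP was that of the integrin ITGA11, a collagen receptor (1.819 ± 4.02 CPM, SD, n = 12, in CI_RFP and 0 in UN_RFP, edgeR adjusted p 0.0912), and of the TGF-beta receptor TGFBR1 (ENSDARG00000042259, 19.29 ± 24.8 CPM, SD, n = 12, and 0, edgeR adjusted p 0.0796). Both lists were also nearer than the members in UN_RFP vs UN_BFP and for the interaction. In CI_RFP vs CI_BFP the receptor median was 0.90, beside 0.88 for the members and 0.22 over all genes. In CI_BFP vs UN_BFP the TGF-beta median was -0.63, beside -0.20 for the members and 0 over all genes.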

How the data were processed

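The authors deposited raw read counts per Ensembl gene for 25 Smart-seq2 libraries. Per the submitters' processing notes, reads were checked with FastQC 0.11.5, aligned with HISAT2 2.1.0 to GRCz11 and counted with featureCounts 1.6.0. No source used here states the settings, strand or annotation release. Reads carry no molecular identifiers, so floors cover counting error only.

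Names came from a table that covers 29178 of 31901 IDs (91.5%). No sequences or coordinates of this build were used. The main test was the two-sided, robust quasi-likelihood test of edgeR 4.0.16 in R 4.3.3, after filterByExpr and TMM scaling, in 1 fit of 4 group means over all 25 libraries. CPM use the effective library sizes of the tested genes, a definition adopted after values on all-gene sizes had been seen. The test was also run on simulated counts with large planted changes and a capped spread. That run does not show how the test behaves at the full spread of these tubes. Alternatives used limma 3.58.1, DESeq2 1.42.0, other filters and scalings, a myosin covariate and 25 fits that each left out 1 library. Tables were made with Python 3.11.15, numpy 2.4.6 and pandas 2.3.3.

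Replicate numbers follow the order of deposition. The members, lists, tests and naming rule were chosen with earlier results of these data known. By that rule, values per library are given for the ID of highest mean CPM and of smallest edgeR p in each of 6 roles, 12 IDs in all. Other IDs are given by range and count, or were picked after their values were seen. Markers of each cell type that are also members were left out of its sum. A floor is 3 counts over a group, 0.0589 CPM in UN_RFP and 0.107 CPM in CI_BFP.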

Additional observations from a re-analysis of the deposited data

Results flagged for a closer look

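Of 28 groups of 4 to 10 libraries looked at, those of the 12 IDs given by library among them, 7 held a library far from the others by Dixon's criterion on log2(CPM + 1). Chance alone is set at about 1 in 20. A group with all but 1 library at 0 meets the criterion at any level, so that rate does not apply to it. In UN_RFP, replicate 6 stood apart for LAMB1 (ENSDARG00000101209), at 4.539 CPM with the others at 0, and for FN1 (ENSDARG00000006526), at 895 CPM with the others at 0 to 6.419 CPM. In the same group replicate 2 stood apart for loxl2a, at 6.972 CPM with the others at 0. In UN_BFP, replicate 3 stood apart for COL6A2, at 0 with the others at 62.31 to 115.1 CPM, and for FN1 (ENSDARG00000006526), at 253.5 CPM with the others at 1644 to 2211 CPM. In UN_BFP, replicate 4 stood apart for TNC (ENSDARG00000021948), at 0.1162 CPM with the others at 0, and for HAPLN1 (ENSDARG00000102395), at 0.93 CPM with the others at 0 to 0.09704 CPM. One count was worth 0.116 CPM in that library, so its TNC value is a single count.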

How the results depend on the processing

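No paired analysis was possible because the labels give the groups no shared replicate numbers. In CI_RFP vs CI_BFP, genes called were 0 in edgeR, 1 with DESeq2 size factors, 446 in DESeq2, 254 in limma voom, 293 without a filter, 139 with the myosin covariate, 11 with only the compared groups fitted and 0 to 9 when leaving out 1 library. Members called there were 0, beside 1 in DESeq2 and 7 with the covariate, and the median log2 fold change of the members turned to -2.104 in voom and -3.621 with the covariate. In UN_RFP vs UN_BFP, genes called were 806 in DESeq2, 198 in voom, 27 without a filter, 148 with the covariate and 0 to 170 when leaving out 1 library, and members 1, 7, 0, 10 and 0 to 3. In CI_RFP vs UN_RFP, genes called were 4 in edgeR, 861 in DESeq2, 525 in voom, 513 without a filter, 0 without the library of few detected genes and 0 to 160 when leaving out 1 library. Members called were 10, 4, 3 and 0 in the first 4 of these alternatives and 0 to 3 when leaving out 1 library. In CI_BFP vs UN_BFP, genes called were 471 in DESeq2 and 18 in voom, and for the interaction 701 in DESeq2, 3 in voom, 2 without a filter and 0 to 1 when leaving out 1 library. The highest counts came without UN_RFP replicate 6 (170 and 160) and without UN_BFP replicate 4 (9). The fold change of MMP2 in CI_RFP vs UN_RFP turned to -2.912 with the covariate. The cause of these differences was not tested.

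Of the log2 fold changes of the 12 IDs given by library, 364 values under alternatives kept direction and side of the threshold, 15 came to pass it and 1 changed sign. Group medians of the summed level and of the number of IDs at 1 CPM moved by less than 1 SD between libraries in 29 of 29 alternatives each, but that SD is wide: the summed UN_RFP median of 428.5 CPM became 124.3 to 732.7 CPM when leaving out 1 library, and the CI_BFP median of 7249 CPM became 5552 to 11759 CPM. A level below about 1 CPM rests on few counts, and CI_BFP has 3 libraries.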
